A study of Mus musculus with 12 samples.

Results

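Mouse embryonic fibroblasts labelled as Gadd45a knockout (Gadd45a KO) were compared with wild-type (WT) fibroblasts, in 3 RNA-seq libraries of each label, which are 6 of the 12 libraries of the study. Embryonic fibroblasts are connective tissue cells grown out of embryos, so a culture can also hold other cell types of the embryo. The libraries were chosen by their label alone. Per the labels, the cells of both groups came from male E15.5 embryos on a C57BL/6N background, from a cross of mice deficient for Gadd45a with mice deficient for Ing1. They were labelled undifferentiated, used at passage 4 and harvested at 80% confluency, with no other treatment named. The Gadd45a KO cells carry the Gadd45a mutation with Ing1 intact, and the WT cells carry neither mutation. The other groups are the double knockout (DKO) and Ing1 KO, with 3 libraries each, and they are used here to share an estimate of the spread and to set the DKO libraries against the Ing1 KO libraries. Whether replicate libraries stem from different embryos is not stated, so p-values measure only the spread between these libraries, which may be technical.

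Gadd45a encodes a small nuclear protein that p53 and other stress signals induce. It binds PCNA, the cell cycle inhibitor p21 and the stress kinase MAP3K4, and it has been linked to excision repair and to the removal of DNA methylation. Gadd45b and Gadd45g are its paralogs. Mice without Gadd45a are viable, and their fibroblasts are known for defects in the response to DNA damage and in growth control.

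The gene counts summed to 38110261, 39977288 and 42852059 in the libraries labelled Gadd45a KO and to 36593702, 37011208 and 33098932 in the WT libraries. The text gives CPM, a gene's count scaled to a library of standard size after TMM adjustment. Of 37991 gene identifiers, 15098 passed a filter on low counts and were tested. The fibroblast label was checked with a list of 32 matrix and mesenchymal genes, whose summed level was 125977 to 136816 CPM in the libraries labelled Gadd45a KO and 124293 to 129605 CPM in the WT libraries. Ddx3y, a Y chromosome gene, stood at 115 to 132 CPM in the libraries labelled Gadd45a KO and at 139 to 159 CPM in the WT libraries, as the label male requires.

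Before any result, replicate 1 of the libraries labelled Gadd45a KO stood apart from the rest of its group. In a principal component plot of the 6 libraries, the first axis held 38.2% of the variance and placed replicates 1, 2 and 3 labelled Gadd45a KO at -32.2, 14.6 and 10.9, against -10.5, 7.5 and 9.8 for the WT replicates. The first axis therefore ran within both groups, with replicate 1 of each at the low end. The second axis, with 19.4% of the variance, separated the groups: 5.8, 16.1 and 11.1 in the libraries labelled Gadd45a KO, against -6.5, -9.7 and -16.7 in the WT libraries. Replicate 1 labelled Gadd45a KO was more than 1 log2 unit below both others of its group in 77 of 10506 genes with a mean of at least 5 CPM and above both in 3, and each of the other 5 libraries differed in this way in at most 2 genes in either direction.

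**Figure D1:**
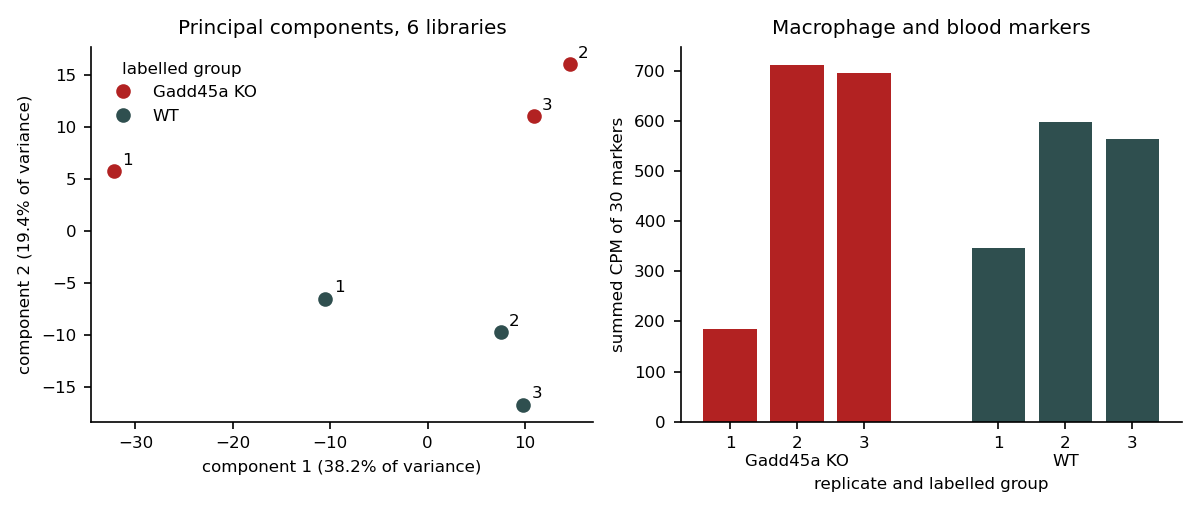
Left, the first and second principal components of log2 CPM in the 3 libraries labelled Gadd45a KO (red) and the 3 WT libraries (dark grey), numbered by replicate. Right, the summed CPM of 30 macrophage and blood markers in each library (bars from 0), where replicate 1 labelled Gadd45a KO has 184 CPM and the other 5 libraries have 347 to 712 CPM.

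The genes in which this replicate lay farthest below the others included genes of macrophages, phagocytic immune cells that embryonic cultures can hold. Lyz2, which encodes lysozyme, had 40.2, 174 and 167 CPM in replicates 1, 2 and 3 labelled Gadd45a KO, against 85.8, 146 and 147 CPM in the WT libraries. The mannose receptor gene Mrc1 had 10.3, 44.8 and 44 CPM in the libraries labelled Gadd45a KO, against 17.9, 38.8 and 35.2 CPM in the WT libraries, and Clec4n, a macrophage lectin gene, had 1.41, 8.78 and 7.95 CPM against 3.62, 8.05 and 8.15 CPM. In these genes replicate 1 labelled Gadd45a KO lay below all 5 other libraries, and WT replicate 1 was the next lowest. Of the 77 genes, 17 were on a list of macrophage and blood markers, and WT replicate 1 was the lowest WT library in 76. The summed level of the 30 measured markers was 184, 712 and 695 CPM in the libraries labelled Gadd45a KO, against 347, 597 and 565 CPM in the WT libraries, and the globin genes Hba-a1 and Hbb-bs were at 0. In bulk RNA, fewer cells of a type and less RNA per cell cannot be told apart. The genes in which replicate 1 was high included Dner, which encodes a Notch-binding membrane protein, at 28.3, 11.6 and 12.5 CPM in the libraries labelled Gadd45a KO, against 22.4, 16.4 and 14.6 CPM in the WT libraries.

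The macrophage genes as a group depended on single libraries. Of 26 markers tested, 19 had a log2 fold change above 0 and 7 below, with a median of 0.09. None was called, against 0.00662% of all genes tested, and none was higher or lower without overlap between the groups, against 7.71% and 6.97%. The intervals of 2 lay within a 2-fold change. Without replicate 1 labelled Gadd45a KO the median was 0.49 and 20 markers were higher in every remaining library labelled Gadd45a KO than in every WT library, against 13.8% of all genes tested with that library left out. Without replicate 2 or replicate 3 labelled Gadd45a KO the median was -0.18 or -0.14, and without WT replicate 1 it was -0.12. No direction can be given for these genes.

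The targeted gene was higher, not lower, in the libraries labelled knockout. Gadd45a (ENSMUSG00000036390, chromosome 6) had 75.9, 118 and 106 CPM in the libraries labelled Gadd45a KO, against 20.9, 21.1 and 21.3 CPM in the WT libraries. All 3 libraries labelled Gadd45a KO lay far above all 3 WT libraries, and replicate 1 was again the lowest of its group. The mean was 100 ± 21.8 CPM in the libraries labelled Gadd45a KO and 21.1 ± 0.197 CPM in the WT libraries (SD, n = 3 each), a 4.74-fold rise (log2 fold change 2.24 ± 0.14, SE, 95% interval 1.93 to 2.56, edgeR adjusted p = 0.000342). When only these 6 libraries were fitted, the fold change was the same and the call was lost (edgeR adjusted p = 0.0865). Which part of the gene was deleted was not stated in the material used, so transcripts of the remaining part may be counted and the level tests nothing about the label. The libraries are therefore called by their label, and each direction below rests on it. Gadd45a was also higher in the DKO libraries, at 132, 120 and 127 CPM, than in the Ing1 KO libraries, at 18, 20.5 and 16.7 CPM (log2 fold change 2.78, edgeR adjusted p = 1.62e-05). All 6 libraries labelled as lacking Gadd45a thus lay above all 6 labelled as carrying it.

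Ing1, the other gene mutated in the cross, encodes a chromatin reader of a histone mark of active promoters. It had 49.7, 54.5 and 52.2 CPM in the libraries labelled Gadd45a KO, against 52.1, 50.4 and 54.4 CPM in the WT libraries. The groups overlapped, and the interval of its log2 fold change was -0.15 to 0.14.

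**Figure D2:**
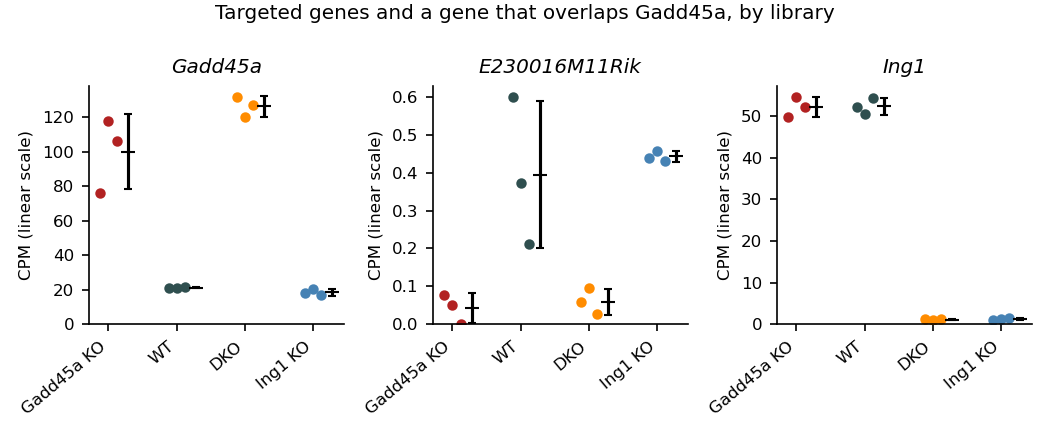
CPM (linear axes from 0) of Gadd45a, E230016M11Rik and Ing1 in each of the 12 libraries by labelled group, with the mean and SD of 3 libraries in black. Gadd45a is higher and E230016M11Rik is lower in both groups labelled as lacking Gadd45a, and Ing1 overlaps between the libraries labelled Gadd45a KO and the WT libraries.

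A long non-coding gene that overlaps Gadd45a on the opposite strand had lower counts where Gadd45a had higher ones. E230016M11Rik had raw counts of 3, 2 and 0 in the libraries labelled Gadd45a KO, against 22, 14 and 7 in the WT libraries. In the DKO libraries it had 2, 3 and 1, against 17, 19 and 18 in the Ing1 KO libraries, a log2 difference of -2.87 (edgeR adjusted p = 0.00358). Against the WT its log2 fold change was -3.17 ± 0.77 (SE, 95% interval -4.83 to -1.51), and it was not called (edgeR adjusted p = 0.313). All 6 libraries labelled as lacking Gadd45a lay below the 6 others in these counts. The kit does not mark strand, so reads from the overlapping part of the genes cannot be told apart.

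Other genes around the locus differed by less. Of the 10 annotated genes on either side, 10 were in the count tables and 5 passed the filter, E230016M11Rik among them. Gng12, which encodes a G protein subunit, had 277, 275 and 282 CPM in the libraries labelled Gadd45a KO, against 296, 309 and 326 CPM in the WT libraries (log2 fold change -0.16 ± 0.05, SE, edgeR adjusted p = 0.479). Its groups did not overlap, and the difference was small. Serbp1, an RNA-binding protein gene, had a log2 fold change of 0.03 ± 0.05, the cytokine receptor gene Il12rb2 0 ± 0.39 and the pseudogene Gm8566 0.69 ± 0.51 (SE). None was called. Of the 40 tested genes nearest to Gadd45a, 20 on each side, 4 were higher and 5 lower without overlap between the groups, and their median log2 fold change was -0.05. Over all genes tested, 7.71% were higher and 6.97% were lower without overlap.

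Across the transcriptome a single gene was called by edgeR at an adjusted p under 0.05, Gadd45a itself, which is 0.00662% of the 15098 genes tested. No gene was called lower (0%). At an unadjusted p under 0.05 there were 1331 genes (8.82%), 799 higher and 532 lower in the libraries labelled Gadd45a KO (5.29% and 3.52%). A total of 1164 genes were higher and 1053 lower in every library labelled Gadd45a KO than in every WT library. DESeq2 gave an adjusted p to 11878 genes and called 31 (0.261%), 15 higher and 16 lower (0.126% and 0.135%). Of its 16 lower genes, 7 were of the interferon list and 6 were of the mitochondrial genome. Without WT replicate 1 edgeR called 13 genes, 12 higher and 1 lower, and 1 gene when any other single library was left out. The count at an unadjusted p under 0.05 was 2132 without WT replicate 1 and 661 without WT replicate 3.

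The intervals say how large a change these libraries leave room for. Like the p-values, they measure only the spread between these libraries, which may be technical. For 13402 of the 15098 genes (88.8%) the 95% interval of the log2 fold change lay within a 2-fold change in either direction, and for 11231 (74.4%) within 1.5-fold. The median half-width was 0.18 and the median size of the estimate 0.08 (log2), with 95% of estimates under 0.43. The bound depended on the level of the gene. Among 2083 genes averaging at least 100 CPM, 99.6% lay within 2-fold and 97.6% within 1.5-fold, with a median half-width of 0.11, and none had an estimate beyond 2-fold. Among 7103 genes at 10 to 100 CPM the shares were 99.3% and 97%. Among 3433 genes at 1 to 10 CPM they were 92.7% and 65.4%, and among 2479 genes under 1 CPM 44% and 2.62%, with a median half-width of 0.78. For the genes of lowest level a 2-fold change was therefore often not excluded by the interval.

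**Figure D3:**
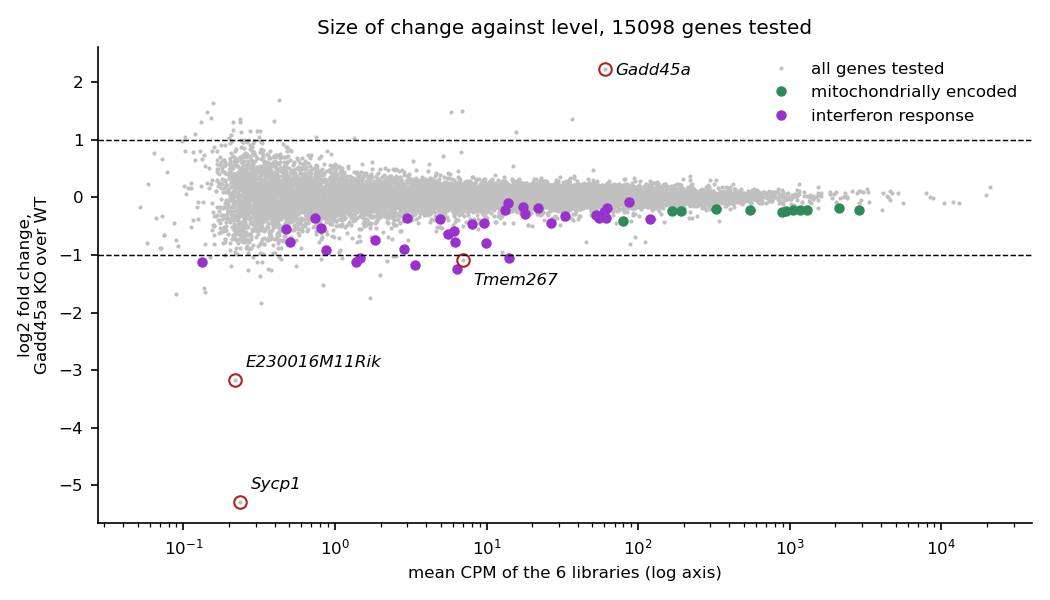
Log2 fold change of the libraries labelled Gadd45a KO over WT (vertical axis, dashed lines at a 2-fold change) against mean CPM of the 6 libraries (log axis) for 15098 genes in grey, with the interferon response list in purple, the mitochondrially encoded genes in green and 4 genes circled. Gadd45a is at 2.24, the interferon genes lie between -1.24 and -0.07, and the mitochondrially encoded genes between -0.41 and -0.19.

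The estimate lay beyond 2-fold for 61 genes, 27 higher and 34 lower, of which 43 had a mean under 1 CPM. Only 8 genes had an interval wholly beyond 1.5-fold. Gadd45a and E230016M11Rik were wholly beyond 2-fold as well. Tmem267, Usp18, Bik, Efcab1 and the pseudogene Rpl10-ps3, named after their values were seen, were also among the 8. Bik, Efcab1 and Rpl10-ps3 stood under 1 CPM in each of the 6 libraries.

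Among genes with a mean of at least 2 CPM, an unadjusted p under 0.05 and no overlap between the groups, 489 were higher and 355 lower in the libraries labelled Gadd45a KO. Among the 8 with the highest log2 fold changes, Cd59a, which encodes a complement inhibitor, had 19.3, 23.6 and 21.9 CPM in the libraries labelled Gadd45a KO, against 5.83, 14.7 and 9.05 CPM in the WT libraries (log2 fold change 1.13 ± 0.47, SE, adjusted p = 0.553 by edgeR). The WT libraries were spread more widely than those labelled Gadd45a KO. Ccdc88c, a regulator of Wnt signalling, had a log2 fold change of 0.58 ± 0.20, then the microRNA gene Mir5125 (0.52 ± 0.15), the G protein subunit gene Gng10 (0.48 ± 0.18), the homeobox gene Hlx (0.44 ± 0.14) and the inhibin subunit gene Inha (0.42 ± 0.14, SE).

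Of the 8 genes with the lowest log2 fold change, 5 are induced by interferon: Ifit1, Usp18, Isg15, Iigp1 and Rtp4. The others were Fgfbp3, which encodes a carrier of fibroblast growth factors, the membrane protein gene Tmem267 and Entpd4b, a nucleotidase gene. Tmem267 had 5.31, 3.86 and 4.31 CPM in the libraries labelled Gadd45a KO, against 9.77, 10.2 and 8.45 CPM in the WT libraries (log2 fold change -1.08 ± 0.17, SE, edgeR adjusted p = 0.275, DESeq2 adjusted p = 2.82e-05). Its groups stood well apart, and it overlaps other annotated genes. Iigp1, an interferon-induced GTPase gene, had 2.03, 1.39 and 1.41 CPM in the libraries labelled Gadd45a KO, against 3.27, 3.98 and 2.5 CPM in the WT libraries. Rtp4, which encodes an antiviral chaperone of receptors, had 2.32, 1.82 and 1.83 CPM in the libraries labelled Gadd45a KO, against 4.6, 3.77 and 2.68 CPM in the WT libraries. Fgfbp3 had 1.48, 1.34 and 1.37 CPM in the libraries labelled Gadd45a KO, against 4.19, 3.21 and 1.56 CPM in the WT libraries, where replicate 3 was close to the libraries labelled Gadd45a KO. Entpd4b had 41.7, 29.2 and 28.8 CPM in the libraries labelled Gadd45a KO, against 49.3, 62.3 and 59.5 CPM in the WT libraries.

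Interferons are secreted alarm signals of infected cells. Their receptors activate transcription factors that bind a short repeat in the promoters of antiviral genes, the interferon-stimulated response element, and many cells keep these genes at a low level without infection. The promoters of the interferon list are shown because 5 of the 8 genes described before are induced by interferon. A core of that element, GAAA followed by any 2 bases and a second GAAA, on either strand (TTTC in place of GAAA when read on the other), was searched in RefSeq promoters of build GRCm38.p6, from 250 bases before to 50 after the start. It was found in 12 of 25 interferon list genes with a promoter in the table (48%), in 410 of 10972 tested genes with a promoter (3.74%) and in 1079 of 27025 in all (3.99%). A match is a description of letters and not a mapped binding site. Genes induced by interferon are known for this element, so its share in the list is no result of these libraries. The 160 bases before the start are given for the 6 members with at least 2 matches there, 5′ to 3′ on the strand of the gene, with matches in capitals. They are Isg15 at chr4:156200819-156200978 (minus strand), Ifit1 at chr19:34640729-34640888 (plus strand), Ifit3 at chr19:34583369-34583528 (plus strand), Oas1a at chr5:120907526-120907685 (minus strand), Bst2 at chr8:71537473-71537632 (minus strand) and Gbp3 at chr3:142559884-142560043 (plus strand). Matches overlap each other in Isg15, Oas1a, Bst2 and Gbp3.
Isg15: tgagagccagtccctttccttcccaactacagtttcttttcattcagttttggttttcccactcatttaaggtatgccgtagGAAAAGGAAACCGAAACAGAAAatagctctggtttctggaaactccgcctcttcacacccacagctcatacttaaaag
Ifit1: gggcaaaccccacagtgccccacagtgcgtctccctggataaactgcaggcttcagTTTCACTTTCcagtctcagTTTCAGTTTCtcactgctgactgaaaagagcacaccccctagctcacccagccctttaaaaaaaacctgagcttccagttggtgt
Ifit3: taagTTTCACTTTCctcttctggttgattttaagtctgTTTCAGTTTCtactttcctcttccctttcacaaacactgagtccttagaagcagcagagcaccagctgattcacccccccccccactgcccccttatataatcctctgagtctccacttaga
Oas1a: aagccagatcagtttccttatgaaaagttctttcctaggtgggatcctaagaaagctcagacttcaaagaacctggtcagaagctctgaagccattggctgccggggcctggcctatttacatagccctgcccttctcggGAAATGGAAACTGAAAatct
Bst2: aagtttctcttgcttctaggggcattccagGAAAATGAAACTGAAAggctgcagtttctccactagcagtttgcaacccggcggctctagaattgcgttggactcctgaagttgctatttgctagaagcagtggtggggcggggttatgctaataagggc
Gbp3: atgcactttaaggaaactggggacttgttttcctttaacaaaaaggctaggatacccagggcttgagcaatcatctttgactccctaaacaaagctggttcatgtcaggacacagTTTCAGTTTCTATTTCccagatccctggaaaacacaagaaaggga

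The interferon list lay lower as a whole in the libraries labelled Gadd45a KO, without a gene called by edgeR. All 35 members tested, of 36 listed, had a log2 fold change below 0, with a median of -0.44. Of all genes tested, 48.9% were below 0 and 51.1% above 0, with a median of 0. Of the 35, 22 had an unadjusted p under 0.05, against 3.52% of all genes in that direction, and 18 had no overlap between the groups, against 6.97%. The mean log2 CPM of the list was 2.69, 2.45 and 2.57 in the libraries labelled Gadd45a KO, against 3.23, 3.30 and 2.74 in the WT libraries. WT replicate 3 was the lowest WT library and stood close to the highest library labelled Gadd45a KO. Without WT replicate 3 the median was -0.59 and 31 of 35 had no overlap, against 10.8% of all genes tested with that library left out, and without WT replicate 2 the median was -0.33. All 35 stayed below 0 when any single library was left out. The list is not independent evidence of its direction, since it was chosen with earlier results of these data known.

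Isg15, which encodes a ubiquitin-like antiviral protein, had 11, 7.21 and 9.09 CPM in the libraries labelled Gadd45a KO, against 22.7, 21.6 and 12.5 CPM in the WT libraries. Each library labelled Gadd45a KO was below each WT library, and WT replicate 3 was nearest to them (log2 fold change -1.06 ± 0.26, SE, 95% interval -1.64 to -0.48, edgeR adjusted p = 0.425). Ifit1, which binds viral RNA, had 4.71, 3.18 and 3.5 CPM in the libraries labelled Gadd45a KO, against 10.2, 10.6 and 6.14 CPM in the WT libraries (log2 fold change -1.24 ± 0.31, SE, edgeR adjusted p = 0.425). Usp18, which removes ISG15 from proteins and damps interferon signalling, had 2.16, 1.92 and 2.18 CPM in the libraries labelled Gadd45a KO, against 5.99, 5.19 and 2.86 CPM in the WT libraries. In each of these genes WT replicates 1 and 2 were about equally high and WT replicate 3 was between them and the libraries labelled Gadd45a KO.

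Eif2ak2 and Herc6 differed by less than Isg15 and Ifit1, with smaller standard errors. Eif2ak2, which encodes the RNA-activated kinase PKR, had 52.2, 47.9 and 46.5 CPM in the libraries labelled Gadd45a KO, against 64.4, 63.4 and 58.5 CPM in the WT libraries (log2 fold change -0.35 ± 0.07, SE, 95% interval -0.49 to -0.20, edgeR adjusted p = 0.313, DESeq2 adjusted p = 0.00505). Herc6, a ligase gene that attaches ISG15 in the mouse, had 5.13, 5.6 and 3.99 CPM in the libraries labelled Gadd45a KO, against 7.22, 7.49 and 7.28 CPM in the WT libraries (log2 fold change -0.58 ± 0.13, SE). The groups did not overlap in either gene. The smallest differences were those of Trim25 (log2 fold change -0.07 ± 0.06) and Ifi35 (-0.10 ± 0.12, SE), named after their values were seen, and both overlapped between groups. For 21 of the 35 members the interval lay within a 2-fold change, against 88.8% of all genes tested. The summed macrophage level, which also differed between libraries, was lowest in replicate 1 labelled Gadd45a KO, and in that group this library had the highest mean of the interferon list. The interferon list's median was -0.49 without it. The part of the macrophage level in the interferon result was not tested.

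**Figure D4:**
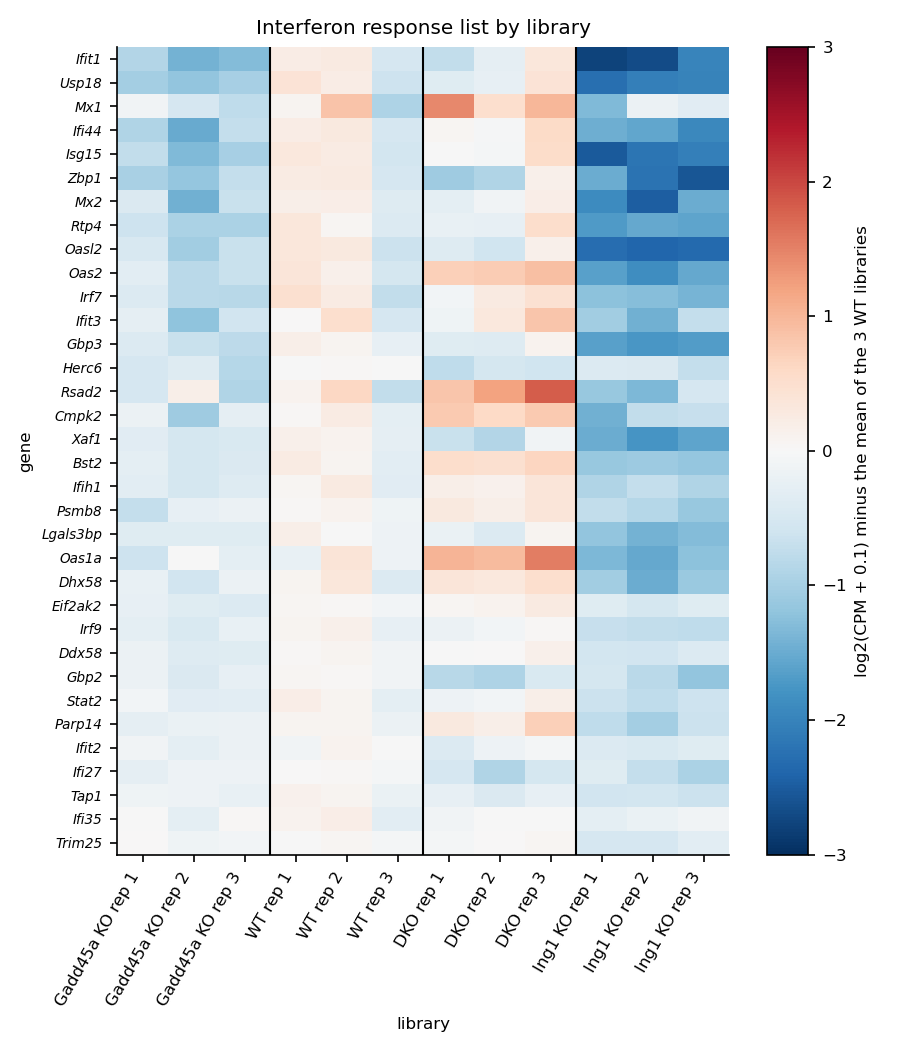
Log2(CPM + 0.1) minus the mean of the 3 WT libraries for 34 of the 35 interferon response genes tested (rows, ordered by log2 fold change) in the 12 libraries (columns, by labelled group). The libraries labelled Gadd45a KO are mostly paler blue than the Ing1 KO libraries, WT replicate 3 is below WT replicates 1 and 2, and the DKO libraries lie near or above WT for most genes.

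The same list ran in the other direction where Ing1 was absent. Its mean log2 CPM was 3.06, 3.06 and 3.44 in the DKO libraries, against 1.88, 1.83 and 1.94 in the Ing1 KO libraries. These 6 libraries share none with the comparison above. The median log2 fold change of DKO over Ing1 KO was 1.52 and 30 of the 35 members were called higher, against 14.9% of all genes tested. The difference of both log2 fold changes, Gadd45a KO over WT minus DKO over Ing1 KO, was called below 0 for 31 of the 35, against 10.4% of all genes tested (edgeR interaction, adjusted p under 0.05). Isg15, at 18.2, 17.5 and 26.9 CPM in the DKO libraries and 3.13, 3.93 and 4.34 CPM in the Ing1 KO libraries, had a difference of -3.52 (edgeR interaction adjusted p = 0.00125). The summed macrophage level was 3500, 2900 and 2850 CPM in the DKO libraries, against 523, 458 and 818 CPM in the Ing1 KO libraries, and its part in this result was not tested.

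The mitochondrial genome encodes 13 proteins of the respiratory chain and ATP synthase, and its transcripts lay slightly lower in the libraries labelled Gadd45a KO. All 12 tested members had a log2 fold change below 0, between -0.41 and -0.19, and mt-Nd4l was listed at 0. In all 12 the groups did not overlap, against 6.97% of all genes tested. An unadjusted p under 0.05 was found for 11, against 3.52% of all genes in that direction. None was called by edgeR. DESeq2 called 6 lower, against 0.135% of the genes to which it gave an adjusted p. The mean log2 CPM of the list was 9.21, 9.14 and 9.15 in the libraries labelled Gadd45a KO, against 9.39, 9.34 and 9.47 in the WT libraries. The groups were close and did not overlap. The median was -0.22, and it was -0.26 to -0.19 when any single library was left out. Most of these transcripts come from a shared precursor, and some share reads where they overlap, so the members are not independent of each other.

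The smallest unadjusted p among them belonged to mt-Atp8, a short ATP synthase gene, with 67.9, 66.5 and 69 CPM in the libraries labelled Gadd45a KO, against 87.3, 85.9 and 97.3 CPM in the WT libraries (log2 fold change -0.41 ± 0.08, SE, adjusted p = 0.313 by edgeR). The cytochrome oxidase gene mt-Co2 had 904, 885 and 839 CPM in the libraries labelled Gadd45a KO, against 1020, 1007 and 1048 CPM in the WT libraries (log2 fold change -0.23 ± 0.05, SE, 95% interval -0.33 to -0.12). For mt-Co3 the libraries labelled Gadd45a KO had 1941, 1889 and 2046 CPM, against 2167, 2206 and 2351 CPM in the WT libraries. Of 35 nuclear genes of oxidative phosphorylation, 14 were above and 21 below 0, with a median of -0.01, and 34 had an interval within 2-fold. In the DKO libraries the mitochondrially encoded list averaged 9.25, 9.28 and 9.21 (log2 CPM), against 9.24, 9.15 and 9.27 in the Ing1 KO libraries, which overlap. Of its 12 tested members, edgeR called 4 higher in DKO over Ing1 KO, against 14.9% of all genes tested. The interaction was called below 0 for 5, against 10.4% of all genes tested.

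**Figure D5:**
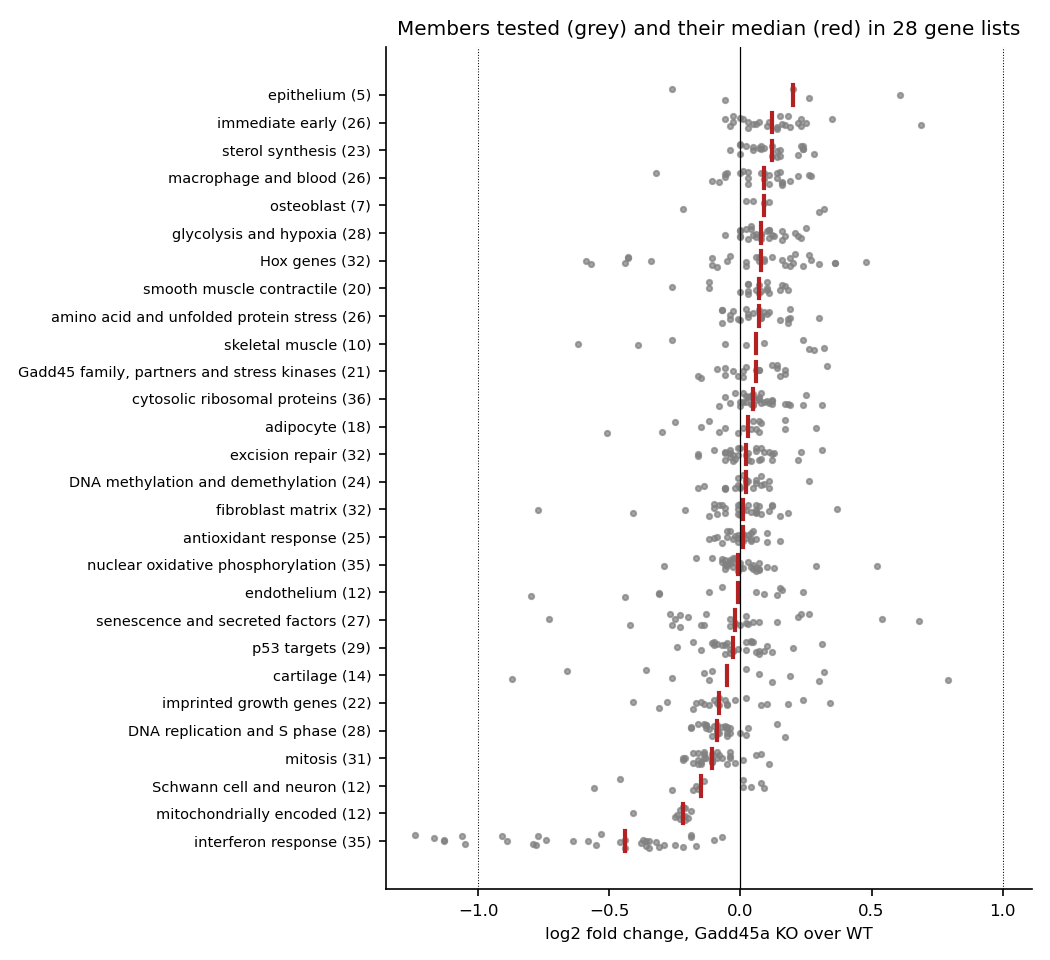
Log2 fold change of the libraries labelled Gadd45a KO over WT for the tested members (grey points, spread vertically for view) of 28 gene lists with at least 5 tested members, with each list's median as a red bar and the number tested in brackets. Gadd45a itself is left out of the points, dotted lines mark a 2-fold change, and the interferon response and mitochondrially encoded lists have the lowest medians, at -0.44 and -0.22.

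Lists close to the known functions of Gadd45a showed small estimates and tight bounds. Of 21 tested genes of the Gadd45 family, its partners and stress kinases, 14 were above and 7 below 0, Gadd45a was called, and the intervals of the 20 others lay within 2-fold. The paralog Gadd45g had 85.3, 101 and 85.2 CPM in the libraries labelled Gadd45a KO, against 79.2, 69.2 and 68 CPM in the WT libraries (log2 fold change 0.33 ± 0.09, SE, 95% interval 0.12 to 0.54, edgeR adjusted p = 0.455). Its groups did not overlap. Gadd45b, added here as the other paralog, had 35.4, 40.6 and 34.7 CPM in the libraries labelled Gadd45a KO, against 34.9, 31.8 and 31.7 CPM in the WT libraries, which overlapped. Map2k7, a kinase upstream of JNK, had a log2 fold change of 0.12 ± 0.05 (SE).

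Targets of p53, the damage-activated factor that also induces Gadd45a, went both ways. Of 29, 13 were above and 16 below 0, with a median of -0.03, all 29 intervals lay within 2-fold and 27 within 1.5-fold. Cdkn1a, which encodes p21, had 381, 389 and 383 CPM in the libraries labelled Gadd45a KO, against 392, 332 and 376 CPM in the WT libraries, and the interval of its log2 fold change was -0.12 to 0.25. For Mdm2, the p53 ligase gene, the interval was -0.17 to 0.03. Both were named after their values were seen. Ckap2, a spindle protein gene, had a log2 fold change of -0.24 ± 0.08, the kinase gene Plk3 0.20 ± 0.08 and Bbc3, which encodes the cell death protein PUMA, 0.31 ± 0.13 (SE).

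Excision repair and DNA methylation genes were tightly bounded. All 32 excision repair genes had intervals within 2-fold and 31 within 1.5-fold, with a median of 0.02. The lowest p was that of Ercc2, a helicase of nucleotide excision repair, with 12.9, 12.2 and 11.8 CPM in the libraries labelled Gadd45a KO, against 12, 9.95 and 9.47 CPM in the WT libraries. All 24 tested genes of DNA methylation and demethylation lay within 2-fold and 22 within 1.5-fold, also with a median of 0.02. Tet3, a DNA demethylation enzyme gene, had a log2 fold change of 0.08 ± 0.04, Mbd3, a gene of the NuRD complex, 0.11 ± 0.05 and the ING family gene Ing3 -0.16 ± 0.07 (SE). None of these was called.

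Of 16 genes best known from the germline, 3 passed the filter. Brdt, a testis bromodomain gene, had 5.25 to 6.9 CPM over the 6 libraries, and its groups overlapped. Sycp1, a meiosis gene, rested on a single library of the comparison: it had raw counts of 1, 0 and 0 in the libraries labelled Gadd45a KO, against 1, 1 and 45 in the WT libraries. It had 69, 69 and 29 in the DKO libraries, against 68, 78 and 87 in the Ing1 KO libraries. WT replicate 3 therefore differed from the other 5 libraries of the comparison, and the fitted change of Sycp1 has a standard error of 4.20 (log2).

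Several lists of growth and metabolism lay slightly to one side. Of 23 sterol synthesis genes, 22 were above 0 and 1 below, with a median of 0.12, and 19 were above 0 with library-size or RLE scaling. Srebf2, the master regulator of the pathway, had 201, 208 and 195 CPM in the libraries labelled Gadd45a KO, against 189, 158 and 166 CPM in the WT libraries (log2 fold change 0.24 ± 0.06, SE, adjusted p = 0.423 by edgeR). WT replicate 1 was nearest to the libraries labelled Gadd45a KO. Without WT replicate 1 the list's median was 0.19 and Srebf2 was called, and without WT replicate 2 the median was 0.05 and 15 members were above 0. The level of the list was 5.47, 5.48 and 5.48 (mean log2 CPM) in the libraries labelled Gadd45a KO. In the WT libraries it was 5.48, 5.22 and 5.38, so the groups overlapped.

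Of 31 mitosis genes 27 were below 0, with a median of -0.11, and 1 was lower without overlap between the groups, against 6.97% of all genes tested. That gene was Ndc80, which encodes a kinetochore protein, with 16.2, 16.5 and 16.1 CPM in the libraries labelled Gadd45a KO, against 17.5, 20.8 and 18.6 CPM in the WT libraries. Of 28 genes of DNA replication and S phase 24 were below 0, with a median of -0.09, and the level of that list overlapped between the groups. The level of the mitosis list was 4.80, 4.89 and 4.78 (mean log2 CPM) in the libraries labelled Gadd45a KO, against 4.76, 5.06 and 4.93 in the WT libraries, so WT replicate 1 was the lowest of all 6. Without WT replicate 1 the median of the mitosis list was -0.20 and 21 members were lower without overlap, against 15.4% of all genes tested with that library left out, and without WT replicate 2 it was -0.04. All 31 mitosis and all 28 replication genes had intervals within 1.5-fold.

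Of 36 cytosolic ribosomal protein genes, 31 were above 0, with a median of 0.05, which was 0.02 without WT replicate 3. Of these 36, 9 were higher without overlap between the groups, against 7.71% of all genes tested, and 0 were lower, against 6.97%. Rplp1, a stalk protein gene, had 469, 445 and 446 CPM in the libraries labelled Gadd45a KO, against 435, 368 and 352 CPM in the WT libraries. Counts of ribosomal protein genes are uncertain because of their many pseudogene copies. Of 26 immediate early genes, which growth signals switch on within minutes, 21 were above 0, with a median of 0.12. Egr1 had 50.3, 52.2 and 49.1 CPM in the libraries labelled Gadd45a KO, against 48.5, 43.1 and 43.5 CPM in the WT libraries. Without replicate 2 labelled Gadd45a KO the median of that list was 0.04. Of 28 glycolysis and hypoxia genes 25 were above 0, with a median of 0.08, which was -0.01 without replicate 2 labelled Gadd45a KO. The level of that list was 7.01, 7.45 and 7.29 (mean log2 CPM) in the libraries labelled Gadd45a KO. It was 7.04, 7.19 and 7.27 in the WT libraries, so the groups overlapped. They also overlapped in the levels of the ribosomal protein and immediate early lists. No member of these lists was called.

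The matrix genes that define fibroblasts went both ways, 17 above and 15 below 0 with a median of 0.01. A pair of small proteoglycan genes lay lower: Dcn had 288, 316 and 280 CPM in the libraries labelled Gadd45a KO, against 373, 442 and 363 CPM in the WT libraries, and Lum had 83.7, 94.2 and 68.2 CPM against 121, 161 and 138 CPM. The groups did not overlap in either gene, and neither was called (edgeR log2 fold change -0.41 ± 0.15 for Dcn and -0.77 ± 0.32 for Lum, SE). Of 22 imprinted genes tested, 16 were below 0, with a median of -0.08. Among them 5 were lower without overlap between the groups, against 6.97% of all genes tested, and 0 were higher, against 7.71%. Ndn, which encodes the growth suppressor necdin, had 92.8, 84.9 and 87.4 CPM in the libraries labelled Gadd45a KO, against 100, 100 and 98.8 CPM in the WT libraries. Of 32 Hox genes, which set position along the body axis, 21 were above 0. Without overlap between the groups 8 were higher, against 7.71% of all genes tested, and 2 were lower, against 6.97%. The lower ones were Hoxa10 and Hoxa11, the second named after its values were seen. Hoxa10 had 17.8, 26 and 23.8 CPM in the libraries labelled Gadd45a KO, against 30.2, 29.7 and 30.9 CPM in the WT libraries.

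Of 26 genes of the amino acid and unfolded protein stress responses 18 were above 0 (median 0.07), and of 20 smooth muscle contractile genes 16 (median 0.07). Without overlap between the groups 5 and 4 of them were higher, against 7.71% of all genes tested, and 0 were lower, against 6.97%. The level of the stress list was 7.09, 7.10 and 7.15 (mean log2 CPM) in the libraries labelled Gadd45a KO. It was 7.08, 7.03 and 7.04 in the WT libraries, so the groups were close and did not overlap. The contractile list was also higher without overlap, but its nearest libraries were both at 8.18 when rounded. The antioxidant list had 13 of 25 above 0 (median 0.01), and the list of senescence and secreted factors 12 of 27 (median -0.02). No member was called.

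Lists of other cell types held no called gene. Their medians were -0.01 for 12 endothelial genes, 0.20 for 5 epithelial genes, 0.06 for 10 skeletal muscle genes, -0.15 for 12 Schwann cell and neuron genes, 0.03 for 18 adipocyte genes, -0.05 for 14 cartilage genes and 0.09 for 7 osteoblast genes. The medians of the endothelial, epithelial, skeletal muscle, adipocyte, cartilage and osteoblast lists changed sign when single libraries were left out. Few intervals in the epithelial, cartilage and osteoblast lists were narrow: 2 of 5, 8 of 14 and 3 of 7 lay within 2-fold. Tie1, Cldn5 and Sox17 of the endothelium, Grhl2 and Esrp1 of epithelia and Myf6 and Pax7 of muscle were at 0 in all 6 libraries.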

How the data were processed

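Polyadenylated RNA of 12 libraries of mouse embryonic fibroblasts was counted per gene. Raw counts were used as the authors deposited them, in a table for each library. According to the submitters' processing notes, TopHat2 2.0.9, Bowtie2 2.1.0, HTSeq 0.5.4, DESeq and genome build mm9 (NCBIM37) were used, and the strand setting used for counting was not stated there. Reads assigned to no gene, 23.89% to 24.91% of the reads listed per library, stayed out of library totals. Most of them did not align uniquely (17.9% to 19.12% of the reads listed). Reads that fell in no annotated gene were 3.79% to 4.79%. Library totals ran from 31493168 to 42852059. Symbols and gene order came from GENCODE M21, of another build, so no gene coordinates are given from it. Symbols were found for 32919 identifiers.

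All 12 libraries entered a single edgeR 4.0.16 model (R 4.3.3, limma 3.58.1) with 4 groups, TMM, filterByExpr and robust quasi-likelihood dispersions, with two-sided tests and Benjamini-Hochberg adjustment over 15098 genes. The model had 8 residual degrees of freedom and a biological coefficient of variation of 8.17%. A gene was called at an adjusted p under 0.05. Intervals are 95% Wald intervals of the log2 fold change from that fit. A list's level is its mean log2 CPM (prior count 2). The test was checked on simulated data. DESeq2 1.42.0, RLE and library-size scaling, other filters, a fit of the 6 libraries, a replicate block and leaving out each library were the alternatives. With 3 against 3 libraries the smallest two-sided p of an exact permutation is 0.1, so none was run.

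The chi-square per degree of freedom between replicates of these groups was 6.59 to 17.9, above counting noise, so none was merged. Deviations from the group mean correlated at 0.336, 0.105 and 0.129 between libraries of the same number, for replicates 1 to 3. Libraries of different number reached as much, at 0.132 for replicate 2 labelled Gadd45a KO with WT replicate 3 and 0.112 for replicate 3 labelled Gadd45a KO with WT replicate 2, so replicate 1 alone stood out by its number. By the rule that every pair of the same number exceeds 0.1, the numbers were taken as pairs only in the alternative fit with a replicate block. That pairing comes from the data, not from the labels. The main model holds the group alone, so its p-values and intervals are unpaired.

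Genes named are Gadd45a, Ing1, called genes, the 8 highest and 8 lowest log2 fold changes among genes with a mean of at least 2 CPM, an unadjusted p under 0.05 and no overlap, up to 3 members per list with the smallest p, the neighbours of Gadd45a, genes in which replicate 1 stood apart, and a check of sex. The comparison, the rule and the 29 lists were chosen with earlier results of these data known, and 712 of 722 list entries had an identifier.
Results on some genes that the rule names were left out of the text and of the heat map.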

Additional observations from a re-analysis of the deposited data

Results flagged for a closer look

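The effect of the Gadd45a label differed between cells with and without Ing1 in 52 of the 126 named genes tested, 31 below 0 and 21 above. The measure is the log2 fold change of Gadd45a KO over WT minus that of DKO over Ing1 KO, tested as an edgeR interaction and adjusted over 15098 genes, of which 17.8% were called. Many of the 126 were named for their values in the libraries that enter this difference, so nothing is read from their share.

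Among interferon response genes the difference was -3.59 for Ifit1, -3.35 for Usp18, -3.52 for Isg15, -2.35 for Iigp1, -2.65 for Rtp4 and -0.91 for Eif2ak2. Among mitochondrially encoded genes it was -0.76 for mt-Atp8, -0.42 for mt-Co2 and -0.21 for mt-Co3. For the replication genes Rrm1, Pcna and Rrm2 it was -0.53, -0.50 and -0.48, and for the mitosis genes Ndc80, Nuf2 and Nusap1 -0.54, -0.72 and -0.84. The spindle gene Ckap2 stood at -0.48. The macrophage genes Arg1, Clec4n, Mrc1, Msr1 and Lyz2 stood at -3.11, -2.91, -3.01, -2.98 and -2.46, beside the summed macrophage level that was higher in the DKO libraries. Gm49339, in which replicate 1 labelled Gadd45a KO was low, stood at -2.52. It was -1.74 for Vwf, -1.37 for Cxcl2, -0.72 for Dcn, -0.72 for Brdt, -0.60 for Gap43, -0.21 for Gng12, and -0.35 and -0.39 for the Y chromosome genes Ddx3y and Uty.

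The difference lay above 0 for the immediate early genes Nr4a1, Egr1 and Ier2, at 0.67, 0.76 and 0.58, and for the stress response genes Atf5, Shmt2 and Trib3, at 0.94, 0.61 and 0.76. It was 0.44 for Srebf2 and 0.69 for Mvd of sterol synthesis and 0.71 for the fatty acid synthase gene Fasn. Ribosomal protein genes Rpl10a and Rplp1 stood at 0.66 and 0.43, and contractile genes Srf, Cnn2 and Flna at 0.29, 0.25 and 0.26. It was 0.99 for Bbc3, 0.31 for Mbd3, 0.23 for Map2k7, 1.29 for Krt7, 0.96 for Acta1 and 1.94 for Egflam. It was -1.58 for Tmem267 and 1.56 for Ccdc88c.

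For Tmem267 the DKO libraries had 6.7, 7.2 and 6.84 CPM, against 4.83, 3.49 and 6.26 CPM in the Ing1 KO libraries, which is the opposite order to that of the libraries labelled Gadd45a KO and the WT libraries. For Ccdc88c the libraries labelled Gadd45a KO had 6.51, 3.73 and 4.87 CPM, against 3.43, 3.37 and 3.28 CPM in the WT libraries. It had 3.85, 3.16 and 3.87 CPM in the DKO libraries, against 5.45, 7.97 and 8.06 CPM in the Ing1 KO libraries.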

How the results depend on the processing

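The count of called genes was 1 with RLE or library-size scaling, other filters and the replicate block. It was 0 when only the 6 libraries were fitted, where Gadd45a stood at 2.24 (log2) with an edgeR adjusted p of 0.0865, and 31 with DESeq2. Leaving out 1 library gave 1 to 13 called genes, 661 (without WT replicate 3) to 2132 (without WT replicate 1) genes at an unadjusted p under 0.05, 1655 to 2731 genes higher without overlap and 1660 to 2371 lower. Fewer libraries make it easier for groups not to overlap. The share of genes bounded within 2-fold was 54.5% with no filter on low counts, 98.2% with a mean of at least 2 CPM, 91.4% with only the 6 libraries and 83.6% to 85.1% without 1 library. Within 1.5-fold it was 45.3%, 92.1%, 77.8% and 69.4% to 70.9% in the same order. Of 126 named genes under these settings, 1535 of 1596 values kept their direction and side of the threshold, 11 became called and 1, Gadd45a with only the 6 libraries, lost the call. The direction turned in 49 values of 20 genes, 45 of them with 1 library left out, and none of the 49 was called. Leaving out 1 library gave log2 fold changes of -0.28 to 0.43 for Lyz2, -0.27 to 0.46 for Ctss, -0.17 to 0.53 for Mrc1, -0.47 to 0.34 for Clec4n, -0.68 to 0.07 for Msr1, -0.23 to 0.57 for Itgam, -0.09 to 0.60 for C1qa, -0.01 to 0.61 for Spi1, -0.47 to 0.30 for Gm49339, -0.57 to 0.19 for Dner, -0.52 to 0.18 for Egflam, -0.34 to 0.39 for Cdh4, -0.40 to 0.08 for Ptger3, -0.37 to 0.08 for Kcnd2, -0.28 to 0.27 for Nrcam, -0.31 to 1.03 for Cdh1, -0.16 to 0.60 for Sp7, -0.24 to 0.56 for Tnnt2, -0.04 to 0.03 for Ing1 and -0.54 to 0.22 for Il12rb2. With the replicate block Ctss stood at -0.03 and Lyz2 at -0.05, and with no filter on low counts Ing1 and Il12rb2, both 0 when rounded, changed sign at 0. The interferon list had a median of -0.59 to -0.33 and the mitochondrially encoded list of -0.26 to -0.19 when any single library was left out. With the replicate block, which pairs libraries of the same number, 1 gene was called, 1395 had an unadjusted p under 0.05 and 88.5% were bounded within 2-fold. The block changed no other call.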
